A study of Mus musculus with 11 samples.

Results

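Lactate dehydrogenase and the carriers that move lactate across the plasma membrane were followed through 5 genes, Ldha, Ldhb, Slc16a1, Slc16a3 and Bsg, of the 24421 genes in the count table. The genes were taken by symbol, matched from the table's Entrez IDs, and the rule used no measured value. The RNA came from splenic natural killer (NK) cells of C57BL/6 mixed bone marrow chimeras, in which CD45.1 marked the wild-type (WT) cells and CD45.2 the cells deficient in LDHA (KO). The sort kept TCRb- CD3e- NK1.1+ DX5+ Ly49H+ cells, Ly49H being an activating receptor for a mouse cytomegalovirus (MCMV) protein, and each library came from 1 mouse. By title there were 2 WT D0, 3 WT D2, 3 KO D0 and 3 KO D2 libraries, and MCMV infection was the stated treatment of all 11. The labelled day after infection reads 2 in all of them, so D0 and D2 are used as titles only, and whether the D0 mice were infected is not settled. WT libraries were assigned by title too, because their genotype label gives both possibilities. The labels do not name the Cre driver, the deleted part of Ldha or the age of the mice, or say which WT and KO samples shared a host.

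Total counts ran from 19452460 to 27992092 per library. The summed level of 6 NK and Ly49H markers was between 5830 and 7690 CPM (counts scaled to a common library size with TMM) in all 11 libraries. Nkg7 held the largest part of that sum (2910 to 4650 CPM), and the others varied more between libraries than the sum did. Klra8, the gene of Ly49H, ran from 399 to 1290 CPM, Klrb1c from 391 to 1680 and Ncr1 from 640 to 1600. Eomes ran from 72.3 to 284 CPM and Itga2 from 112 to 239 CPM. T cell markers summed to between 12.0 and 30.1 CPM, B cell markers to between 2.47 and 6.63 CPM and dendritic cell markers to between 1.80 and 4.98 CPM. Monocyte and macrophage markers were higher in the D0 libraries (13.8 to 52.7 CPM) than in the D2 libraries (5.12 to 8.51 CPM), as were neutrophil markers in WT (4.68 to 5.40 CPM in D0 and 1.09 to 2.24 CPM in D2). In KO, neutrophil markers ran from 1.46 to 7.05 CPM in D0 and from 1.28 to 1.89 CPM in D2, and the part of either cell type in the changes from D0 to D2 was not tested. The haemoglobin gene Hba-a1 reached 335.8 CPM in KO D0 replicate 2 and 286.5 CPM in WT D0 replicate 2, against at most 110.2 CPM in the other libraries. In bulk RNA, fewer cells of a type and less RNA per cell cannot be told apart.

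Lactate dehydrogenase interconverts pyruvate and lactate and, in the direction of lactate, regenerates the NAD+ that glycolysis consumes. The enzyme is assembled from A subunits, encoded by Ldha, and B subunits, encoded by Ldhb, and lymphocytes that switch to fast glycolysis are known for strong Ldha expression. Lactate leaves or enters the cell with a proton through the monocarboxylate transporters MCT1 (Slc16a1) and MCT4 (Slc16a3), which reach the surface together with the glycoprotein basigin (Bsg).

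The 5 genes differed widely in level. Per kilobase of the longest coding transcript, mean levels in WT D2 were 1600 CPM per kb for Ldha, 242.4 for Bsg, 28.6 for Slc16a1, 1.59 for Slc16a3 and 0.0700 for Ldhb. In WT D0 the order was the same, with 335.8 CPM per kb for Ldha, 161.1 for Bsg, 4.38 for Slc16a1, 1.56 for Slc16a3 and 0.160 for Ldhb. In KO, where Ldha was at 54.7 CPM per kb in D0 and 60.4 in D2, Bsg held the highest level of the 5 (169.3 in D0 and 127.0 in D2). The value of Slc16a3 depends on the transcript taken, since its longest one is 4335 bases long and another has 2272 bases. Levels within 1 gene are given below in CPM without division by length.

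**Figure D1:**
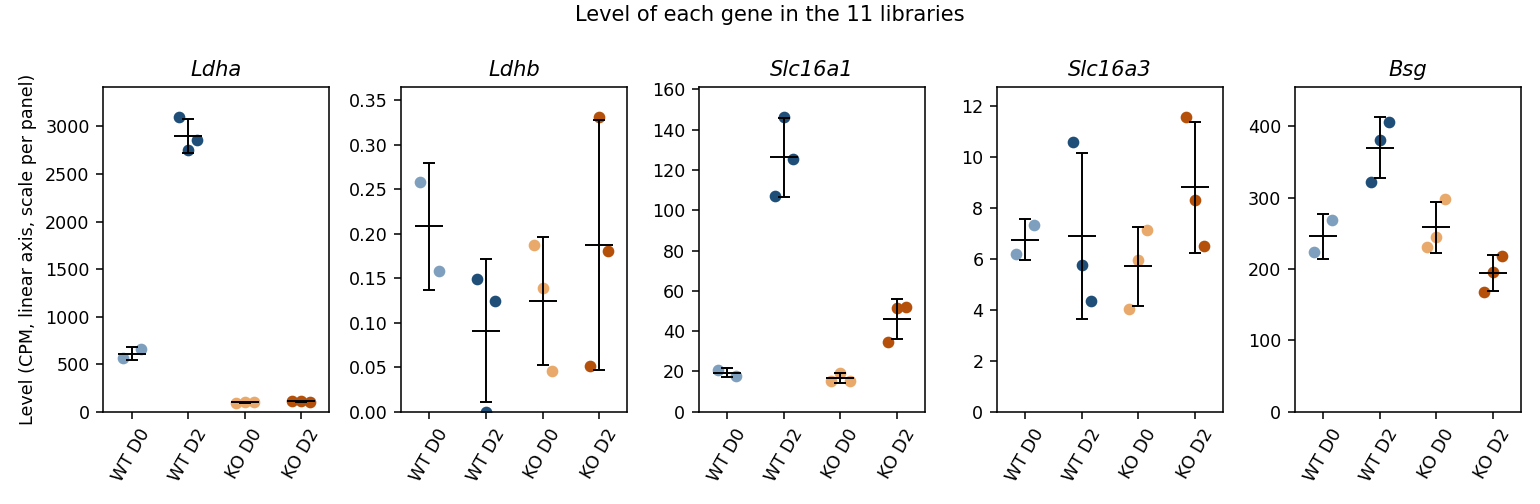
Level of Ldha, Ldhb, Slc16a1, Slc16a3 and Bsg in CPM on a linear axis, with its own scale in each panel. Points are libraries, the long bar is the group mean and the short bars are 1 SD (n = 2 for WT D0, n = 3 elsewhere). Ldha, Slc16a1 and Bsg are highest in WT D2, where no library overlaps another group.

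Ldha (Entrez 16828, chromosome 7, 46842274 to 46855627, mm10) is the gene named by the genotype and therefore the check of the labels. It stood at 562.7 and 656.3 CPM in WT D0 replicates 2 and 3, and at 3101, 2753 and 2856 CPM in WT D2. The KO D0 libraries held 91.1, 103.2 and 103.8 CPM, and the KO D2 libraries 114.6, 112.8 and 101.4 CPM. All 6 KO libraries lay below all 5 WT libraries, WT D2 lay above WT D0, and the KO groups overlapped each other.

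Changes were tested with edgeR's quasi-likelihood test in 1 fit of the 4 groups over 13711 genes, and a call means a p under 0.05 after Benjamini-Hochberg adjustment over these genes. In all, 4 of the 5 genes entered the fit, Ldhb having too few counts. KO cells held 16.3% of the WT level of Ldha at D0 (log2 fold change -2.62, SE 0.12, edgeR adjusted p = 3.8e-07) and 3.77% at D2 (-4.73, SE 0.13, adjusted p = 4.1e-10). From D0 to D2 Ldha rose 4.76-fold in WT (2.25, SE 0.13, edgeR adjusted p = 5.2e-08). In KO the residual signal differed by 0.14 (95% interval -0.12 to 0.40, edgeR adjusted p = 0.28). The change in KO was lower than that in WT by 2.11 on the log2 scale (SE 0.17, edgeR adjusted p = 0.00022). Counts are per gene, so the residual reads in KO cannot be placed on exons here, and processed copies of Ldha and Ldhb were not analysed here.

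Ldhb (Entrez 16832, chromosome 6, 142490249 to 142507957), the gene of the B subunit, was at or near the limit of detection in both genotypes. Its raw counts were 8 and 5 in WT D0, 3, 0 and 3 in WT D2, 5, 4 and 1 in KO D0, and 1, 7 and 4 in KO D2. The highest level was 0.332 CPM, in KO D2 replicate 2. A count of 3, taken as the floor of detection, is worth 0.107 to 0.154 CPM by the library totals, and the 0 counts of WT D2 replicate 2 allow up to 0.119 CPM. No KO library held more than 7 counts of Ldhb, and no fold is given because the groups lie around the floor.

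Ldhb made up at most 0.293% of the summed Ldha and Ldhb counts of a library (KO D2 replicate 2, exact 95% interval 0.118% to 0.603%, counting error only). In WT D2 the share was at most 0.00482%, and in WT D0 it was 0.0241% and 0.0459%. The KO shares ran from 0.0445% to 0.205% in D0 and from 0.0446% to 0.293% in D2, so every KO D2 share lay above every WT D2 share. The denominator differs between the genotypes by the loss of Ldha itself. The other lactate dehydrogenase genes Ldhc, Ldhal6b and Ldhd did not pass the filter either, and the highest count among them was 14, for Ldhd.

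Slc16a1 (Entrez 20501, chromosome 3, 104638664 to 104658462) encodes MCT1, the carrier that lymphocytes induce on activation. It stood at 20.9 and 17.9 CPM in WT D0 and at 107.2, 146.4 and 125.6 CPM in WT D2. KO D0 libraries held 15.5, 19.4 and 15.2 CPM and KO D2 libraries 34.4, 51.7 and 51.9 CPM. The D0 groups overlapped, both D2 groups lay above them, and the KO D2 libraries lay between D0 and WT D2 without overlap.

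Slc16a1 rose 6.52-fold from D0 to D2 in WT (log2 fold change 2.70, SE 0.22, edgeR adjusted p = 6.2e-07) and 2.76-fold in KO (1.46, SE 0.18, adjusted p = 1.8e-05). At D2 the KO level was 36.4% of that in WT (-1.46, SE 0.18, edgeR adjusted p = 0.00022), while at D0 the genotypes differed by -0.22 (95% interval -0.69 to 0.26, adjusted p = 1.0). The rise was smaller in KO by 1.24 on the log2 scale (SE 0.27, edgeR adjusted p = 0.025). That call was lost, with adjusted p between 0.061 and 0.11 and differences of -1.35 to -1.07, when any of KO D0 replicate 2, KO D2 replicates 1 and 2, WT D0 replicates 2 and 3, or WT D2 replicates 2 and 3 was left out. With a GC offset, described below, it was -0.59 (adjusted p = 0.23).

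Slc16a3 (Entrez 80879, chromosome 11, 120948484 to 120959000) encodes MCT4, the carrier known for lactate export from glycolytic cells. It stayed low in every group, at 6.17 and 7.31 CPM in WT D0 and at 10.6, 5.75 and 4.35 CPM in WT D2. KO D0 libraries held 4.05, 5.93 and 7.11 CPM and KO D2 libraries 11.6, 8.29 and 6.51 CPM. All 4 groups overlapped, and the order of their means (8.79 CPM in KO D2, 6.88 in WT D2, 6.74 in WT D0 and 5.70 in KO D0) does not exceed their spread.

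None of the 5 comparisons called Slc16a3 (edgeR adjusted p from 0.12 to 1.0; 0 of 5 at an unadjusted p under 0.05, the lowest being 0.081). In WT the change from D0 to D2 was 0.03 on the log2 scale (95% interval -0.84 to 0.89), an interval that leaves out a rise of the size seen for Slc16a1. In KO it was 0.63 (95% interval -0.16 to 1.41, edgeR adjusted p = 0.12), and it passed the threshold with only the 6 KO libraries in the fit (0.69, adjusted p = 0.047) and with the GC offset (0.95, adjusted p = 0.022). At D2 KO and WT differed by 0.36 (95% interval -0.42 to 1.14, edgeR adjusted p = 0.59), or by 0.71 (adjusted p = 0.0096) with the GC offset and a block for the replicate number.

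The ratio of the carrier genes was lower in WT D2 than in every other group. Per kb, Slc16a3 relative to Slc16a1 stood at 0.302 and 0.417 in WT D0 and between 0.0355 and 0.101 in WT D2. In KO it lay between 0.267 and 0.479 in D0 and between 0.129 and 0.343 in D2. Every KO D2 ratio lay above every WT D2 ratio, with a mean log2 difference of 1.89 (exact two-sided permutation p = 0.1, the smallest possible with 3 against 3; adjusted p = 0.40 over 4 comparisons). At D0 the ratios overlapped (-0.05, exact permutation p = 1.0). The change from D0 to D2 was -2.76 in WT (exact permutation p = 0.2, the smallest possible with 2 against 3 libraries) and -0.82 in KO (exact permutation p = 0.3).

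Bsg (Entrez 12215, chromosome 10, 79704358 to 79711979) encodes basigin, the chaperone of both carriers. It stood at 223.3 and 268.3 CPM in WT D0 and at 322.3, 381.2 and 406.4 CPM in WT D2. KO D0 libraries held 231.3, 245.4 and 298.4 CPM and KO D2 libraries 167.9, 195.3 and 218.3 CPM. WT D2 was above and KO D2 below all D0 libraries, and the D0 groups overlapped.

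At D2 the KO level of Bsg was 52.4% of that in WT (log2 fold change -0.93, SE 0.14, edgeR adjusted p = 0.00074), and at D0 the genotypes differed by 0.07 (95% interval -0.31 to 0.45, adjusted p = 1.0). Bsg rose 1.51-fold from D0 to D2 in WT (0.59, SE 0.16, edgeR adjusted p = 0.0078) and fell to 0.750 of its D0 level in KO (-0.41, SE 0.14, adjusted p = 0.023). The changes differed by -1.0 (SE 0.22, edgeR adjusted p = 0.023). Bsg and Slc16a1 were thus both lower in KO than in WT at D2, Slc16a1 after a rise from D0 and Bsg after a fall. The rise in WT was not called without WT D0 replicate 2 (0.40, adjusted p = 0.14) or WT D2 replicate 3 (0.46, adjusted p = 0.056). The fall in KO was not called without KO D0 replicate 3 (-0.36, adjusted p = 0.050) or KO D2 replicate 1 (-0.38, adjusted p = 0.066), or with DESeq2's scaling in edgeR (-0.30, adjusted p = 0.090). The difference was not called (adjusted p 0.052 to 0.14, values -1.14 to -0.86) without any of the same 7 libraries as for Slc16a1, KO D0 replicate 2, KO D2 replicates 1 and 2, WT D0 replicates 2 and 3, and WT D2 replicates 2 and 3.

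Across the 5 comparisons, 3 of the 4 tested genes were lower in KO than in WT at D2 (Ldha, Slc16a1 and Bsg), where 16.1% of all tested genes were called, 14.5% lower and 1.61% higher. At D0 Ldha alone of the 4 was called, and it was lower, where 0.153% of all tested genes were called, 0.0583% lower and 0.0948% higher. From D0 to D2, 3 rose in WT and none fell, where 53.5% of all tested genes were called, 27.5% rising and 26% falling. In KO Slc16a1 rose and Bsg fell, where 61.4% were called, 27% rising and 34.5% falling, so that calls over time are frequent among all genes. The change was lower in KO for 3 of the 4, where 5.84% of all tested genes were called, 5.72% lower and 0.124% higher, and for between 1 and 3 of the 4 when 1 library was left out. Ldha is the deleted gene and counts in each of these except the change in KO. The comparisons share groups and are not independent of each other.

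**Figure D2:**
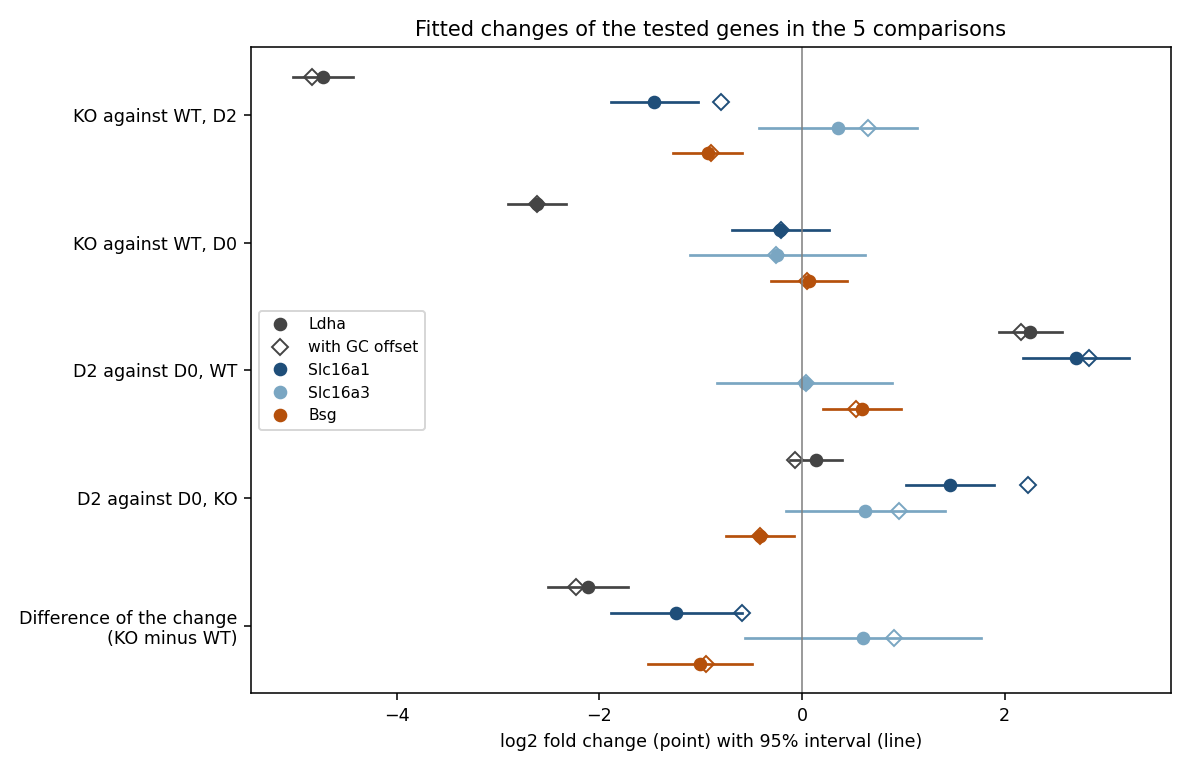
Fitted log2 fold changes (filled points) with 95% intervals (lines, t distribution on 7 degrees of freedom) of Ldha, Slc16a1, Slc16a3 and Bsg in the 5 comparisons, and the values with the GC offset (open diamonds). The interval of Slc16a3 crosses 0 in all 5, and the offset moves Slc16a1 more than Bsg or Ldha.

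Promoter sequences are shown for Ldha and Slc16a1, which both rose in WT, and for Slc16a3, the other carrier, whose change was not called; none is shown for Bsg, which also rose in WT. Each line gives the 250 bases before the RefSeq start (GRCm38.p6, plus strand, 5′ to 3′), and capitals mark the letters ACGTG on either strand, the core bound by hypoxia-inducible factor HIF-1, which within CACGTG are also the E-box bound by MYC and MAX. The windows are chr7:46845554-46845803 for Ldha, chr3:104638414-104638663 for Slc16a1 and chr11:120948817-120949066 for Slc16a3.
Ldha: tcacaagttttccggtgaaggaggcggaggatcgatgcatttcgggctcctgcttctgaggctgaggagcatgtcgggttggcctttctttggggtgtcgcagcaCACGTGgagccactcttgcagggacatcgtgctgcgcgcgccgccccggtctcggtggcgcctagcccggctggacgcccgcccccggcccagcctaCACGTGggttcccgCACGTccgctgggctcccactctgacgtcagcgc
Slc16a1: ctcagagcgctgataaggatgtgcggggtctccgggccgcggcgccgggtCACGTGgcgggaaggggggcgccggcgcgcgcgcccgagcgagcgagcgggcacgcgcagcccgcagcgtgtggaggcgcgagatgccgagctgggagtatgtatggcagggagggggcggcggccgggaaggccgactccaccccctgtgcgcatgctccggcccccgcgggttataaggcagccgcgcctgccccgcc
Slc16a3: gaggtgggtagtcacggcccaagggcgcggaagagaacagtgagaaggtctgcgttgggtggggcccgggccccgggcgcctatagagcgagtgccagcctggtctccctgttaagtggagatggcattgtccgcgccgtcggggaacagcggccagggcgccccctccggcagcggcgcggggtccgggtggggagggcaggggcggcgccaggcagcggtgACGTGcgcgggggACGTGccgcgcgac
Ldha held ACGTG at 3 places, 2 of them CACGTG, which reads the same on both strands. Slc16a1 held 1 place, a CACGTG, and Slc16a3 held 2 places and no CACGTG. The same window of Ldhb held neither, nor did that of a second RefSeq start of Ldha (chr7:46846832-46847081). Of 32851 promoter windows of that length, 16.6% held ACGTG and 6.02% held CACGTG. These matches describe letters only.

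Of 7 regulators of these genes, Hif1a, Myc and Max rose from D0 to D2 in both genotypes, where 27.5% (WT) and 27% (KO) of all tested genes rose. Vhl (-0.675, edgeR adjusted p = 0.0011) and Arnt (-0.32, adjusted p = 0.038) fell in WT. In KO Vhl (-1.84, edgeR adjusted p = 1.4e-07) and Egln3 (-1.28, adjusted p = 0.0035) fell. Over all tested genes 26% fell in WT and 34.5% in KO. The fall of Arnt was not called with DESeq2's scaling in edgeR (adjusted p = 0.058). Hif1a, which encodes the oxygen-regulated subunit of HIF-1, went from 71.1 ± 4.11 CPM in WT D0 (SD, n = 2) to 496.2 ± 231.6 CPM in WT D2 (n = 3), and from 57.2 ± 11.2 to 144.8 ± 38.1 CPM in KO (n = 3 each). At D2 Hif1a was at 29.2% of the WT level in KO (log2 fold change -1.78, SE 0.28, edgeR adjusted p = 0.00089). Its rise did not differ between genotypes past the threshold (-1.46, SE 0.42, edgeR adjusted p = 0.062), and did with the replicate block (-1.45, adjusted p = 0.00069). Myc, a driver of glycolytic genes, reached 1364 ± 188.0 CPM in WT D2 and 1170 ± 217.1 CPM in KO D2, from 133.6 ± 0.85 and 136.8 ± 14.3 CPM, with no call between genotypes at D2 (-0.22, adjusted p = 0.41), though with the replicate block it was called lower in KO (-0.23, adjusted p = 0.032). Vhl (-1.32, SE 0.13, adjusted p = 7.8e-05), whose product marks HIF-1 alpha for degradation, and the prolyl hydroxylase gene Egln3 (-1.28, SE 0.32, adjusted p = 0.014) were also lower in KO at D2. The call of Egln3 was lost without KO D2 replicate 1 (-1.07, adjusted p = 0.061), and that of the rise of Max in WT without WT D0 replicate 2 (1.15, adjusted p = 0.067).

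The transcripts of Slc16a1 and Bsg differ in base composition, which moved with the KO to WT difference over all genes at D2. The highest GC share of any 100-base window was 81% for Slc16a1, 76% for Slc16a3, 73% for Bsg and 64% for Ldha and Ldhb. Of tested genes with such a window of 80% or more, 33.3% were lower in KO at D2, as were 32.9% of those at 75% to 80%, 5.06% of those at 70% to 75% and 1.34% of those at 60% to 65%. A GC score, the median deviation of genes at 80% or more minus that of genes under 70%, ran from -0.655 to -0.515 in KO D2 and from -0.248 to 0.273 in WT D2, against 0.128 to 0.418 in the D0 libraries.

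A GC offset, which removes each library's trend with this share, was added after the data had been seen. With it, KO against WT at D2 was -0.80 for Slc16a1 (SE 0.15, edgeR adjusted p = 0.0039), -0.90 for Bsg (SE 0.14, adjusted p = 0.0011) and -4.84 for Ldha (SE 0.14, adjusted p = 3.4e-10). All 3 kept their calls, and of the 3 the value of Slc16a1 moved most. The rise of Slc16a1 in KO became 2.23 (adjusted p = 7.2e-08), nearer to its 2.83 in WT. The offset is estimated from the same libraries, in which GC score and genotype go together at D2.

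**Figure D3:**
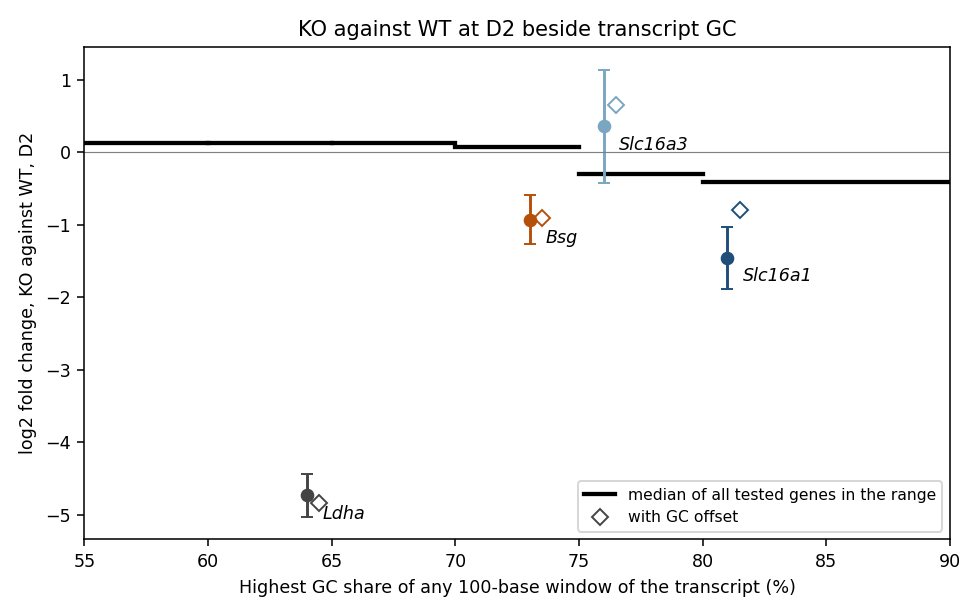
KO against WT at D2 (log2 fold change, vertical axis) against the highest GC share of any 100-base window of the transcript (horizontal axis, %). Filled points with 95% intervals are the tested genes, open diamonds (shifted to the right for legibility) their values with the GC offset, and black lines the median of all tested genes in each range, which falls from 0.125 under 60% to -0.418 at 80% or more.

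Of 14 listed genes (other monocarboxylate transporter genes, with the sodium-coupled Slc5a8 and Slc5a12), 7 were tested, and edgeR called none between genotypes at either day. At an unadjusted p under 0.05, 1 was higher and 1 lower in KO at D2 and 1 higher at D0, and DESeq2 called Slc16a7 higher at D2. With the replicate block, Slc16a7 was called higher (edgeR adjusted p = 0.032) and Slc16a11 lower (adjusted p = 0.031) in KO at D2, both from levels near the floor. Slc16a6, whose product carries ketone bodies and taurine, rose in both genotypes, from 26.1 ± 3.11 (SD, n = 2) to 98.3 ± 3.85 CPM in WT and from 32.2 ± 0.74 to 101.7 ± 4.96 CPM in KO (log2 fold changes 1.92 and 1.66, edgeR adjusted p = 1.3e-07 and 8.2e-08). Its transcript holds a window of 84% GC, above that of Slc16a1, and its KO to WT difference at D2 was 0.05 (SE 0.11, edgeR adjusted p = 0.85). With the GC offset Slc16a6 was called higher in KO at D2 (0.53, SE 0.12, edgeR adjusted p = 0.0096). Slc16a7, the gene of MCT2, fell in both genotypes from a low level (1.25 to 0.0729 CPM in WT and 1.34 to 0.357 CPM in KO), with D2 libraries between 0 and 0.569 CPM. Slc16a11 and Slc16a13, both with means under 5 CPM, were also called lower at D2 than at D0 in KO, Slc16a13 with the GC offset too. The call of Slc16a11 was lost with that offset and without KO D0 replicate 3 (adjusted p = 0.13), KO D2 replicate 2 (0.067) or KO D2 replicate 3 (0.088), its KO D2 libraries being at 0 to 0.102 CPM.

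Of 4 genes of the basigin family and its partners, 3 were tested. Emb, the gene of embigin, which like basigin carries monocarboxylate transporters to the membrane, was at 102.0 ± 18.4 and 141.3 ± 40.4 CPM in WT D0 and D2 and at 127.5 ± 30.6 and 198.0 ± 61.0 CPM in KO. Its rise in KO (0.63, SE 0.25, edgeR adjusted p = 0.046) was lost without any of 7 libraries (adjusted p 0.068 to 0.29, for KO D0 replicates 2 and 3, KO D2 replicates 2 and 3, WT D0 replicates 2 and 3, and WT D2 replicate 3), and with no filter on low counts or a mean of at least 5 CPM. Nptn, the gene of neuroplastin, fell in WT (-1.44, SE 0.15, edgeR adjusted p = 4.1e-06) and in KO (-1.03, SE 0.14, adjusted p = 2.6e-05). Ppia, whose product cyclophilin A is a ligand of basigin, rose in WT (1.45, SE 0.12, edgeR adjusted p = 8.0e-07) and in KO (1.38, SE 0.11, adjusted p = 2.6e-07). None of the 3 was called between genotypes at D2 by edgeR, where none had an unadjusted p under 0.05, or by DESeq2, where Emb stood at 0.58 (unadjusted p = 0.024, adjusted p = 0.10). With the replicate block Emb was called higher in KO at D2 (0.48, edgeR adjusted p = 0.0007).

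Upstream of lactate, 10 of 15 genes of glucose uptake and glycolysis rose from D0 to D2 in WT and 10 of 15 in KO, where 27.5% and 27% of all tested genes rose, with medians of 0.95 and 0.91 against -0.07 and -0.20 over all tested genes. Hk2, the inducible hexokinase, went from 1.63 ± 0.38 (SD, n = 2) to 40.2 ± 10.6 CPM in WT and from 2.39 ± 0.62 to 35.4 ± 8.80 CPM in KO. Gapdh reached 3274 ± 320.9 CPM in WT D2 and 3277 ± 175.6 CPM in KO D2 (difference 0.00146, SE 0.12, edgeR adjusted p = 1.0), and Pgk1 445.1 ± 45.5 and 417.7 ± 8.75 CPM. Slc2a3, a glucose transporter gene, and the phosphofructokinase gene Pfkm fell in both genotypes. At D2 Pgam1, the phosphoglycerate mutase gene, was the 1 gene of the 15 called between genotypes (-0.47, SE 0.11, edgeR adjusted p = 0.0083), against a list median of 0.00 and 16.1% of all genes called. With the GC offset Pfkl and Pkm, genes of phosphofructokinase and pyruvate kinase, were called higher in KO at D2. In KO the residual Ldha signal was not called higher at D2, while 10 of these 15 genes were.

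On the other route of pyruvate, into the mitochondrion, 5 of 15 genes were lower in KO at D2 and none higher (also none by DESeq2 or at an unadjusted p under 0.05, median -0.45), against 14.5% and 1.61% of all tested genes. With the GC offset 3 were lower (Dlat, Pdk3 and Mpc2). From D0 to D2, 7 of the 15 rose and 1 fell in WT, and 5 rose and 4 fell in KO, with 27.5% rising and 26% falling, and 27% rising and 34.5% falling, over all tested genes. Dlat, the acetyltransferase subunit of pyruvate dehydrogenase, was at 113.9 ± 15.6 CPM in WT D2 and 39.3 ± 7.49 CPM in KO D2 (-1.53, SE 0.16, edgeR adjusted p = 8.7e-05). Pdk3, a kinase that inhibits that enzyme, was at 93.5 ± 10.3 and 34.5 ± 2.33 CPM (-1.44, SE 0.14, adjusted p = 7.8e-05), and Mpc2, a subunit of the mitochondrial pyruvate carrier, at 27.8 ± 3.15 and 16.1 ± 1.20 CPM (-0.79, SE 0.15, adjusted p = 0.0023). Among 9 genes of the shuttles that pass the electrons of NADH to the mitochondrion, 6 rose in WT and 6 in KO, against 27.5% and 27% of all tested genes, Slc25a13 (2.23 and 2.04) and Got1 (1.89 and 1.83) among them. Slc25a11, the oxoglutarate carrier gene, was lower in KO at D2 (-0.89, SE 0.11, edgeR adjusted p = 0.00018), and with the GC offset Gpd2 and Slc25a12 of this list were called higher in KO. Over the 7 lists, 56 of 67 genes were tested, and 10 were lower and none higher in KO at D2 by edgeR (12 lower and 1 higher at an unadjusted p under 0.05, and 10 lower and 1 higher by DESeq2). The 10 of 56 are near the 14.5% of all tested genes that were lower, and 1.61% were higher. The split was 8 lower and 5 higher with the GC offset, 13 lower and 2 higher with the replicate block, and 8 lower and 9 higher with both. Over all 13711 tested genes, 1174 were lower and 713 higher with the offset, and 2544 and 900 with the block. With both, 1700 of all tested genes were lower and 1566 higher. At D0 edgeR and DESeq2 called none, with 2 higher and 1 lower at an unadjusted p under 0.05.

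**Figure D4:**
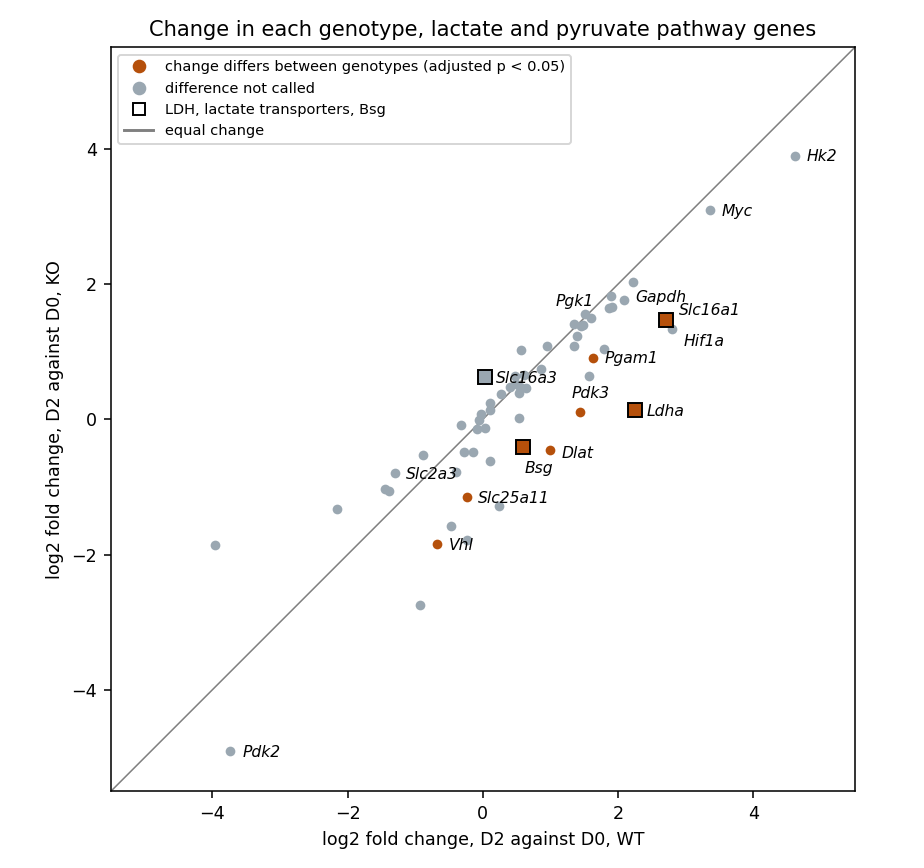
Change from D0 to D2 in WT (horizontal axis) and in KO (vertical axis), both as log2 fold change, for the tested genes of the lactate and pyruvate lists. Squares are Ldha, Slc16a1, Slc16a3 and Bsg, orange marks genes whose change differs between genotypes, and the line marks equal change; Ldha, with 2.25 in WT and 0.14 in KO, has the largest difference of the orange points.

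The genes with the most similar pattern were named for each gene by Pearson's r of log2 CPM over the 11 libraries, as a description. For Slc16a1 these were Smchd1 (0.992), Mxd1 (0.989), Ezh2 (0.986), Ranbp1 (0.984) and Eif5a (0.984), and for Bsg they were Gadd45gip1 (0.988), Gpn2 (0.982), Poldip2 (0.974), Thoc3 (0.974) and Rps19bp1 (0.973). For Ldha the closest were Bnip2 (0.943), Stx11 (0.939), Arcn1 (0.936), Ivns1abp (0.933) and Rnf139 (0.932). Of these, Ivns1abp went from 252.8 to 440.2 CPM in WT and from 198.5 to 214.3 CPM in KO. For Slc16a3 the highest was Arf2 (0.893), followed by Gcc1 (0.854), Depdc5 (0.851), Xdh (0.840) and Helb (0.839). The 11 points of each correlation fall into the same 4 groups of libraries.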

How the data were processed

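RNA-seq counts of 11 libraries from sorted Ly49H+ NK cells were used. The authors deposited whole-number counts per Entrez gene. Per the submitters' processing notes, bcl2fastq 2.20.0.422, Trimmomatic 0.36, Salmon 0.13.1 (another entry reads 13.1) and DESeq2 1.22.2 were used, with build mm10. The role of each tool is not given in the sources used here, and the counts may be rounded estimates. Per the labels' protocols, cDNA was amplified with the SMART-seq V4 kit, and the labels mention no molecular identifiers. The exact interval of the Ldhb share and the detection floors therefore cover counting error only. Intervals of log2 fold changes come from the fit and cover the spread between libraries. A RefSeq table (GRCm38.p6) gave symbols and positions for 24387 IDs, and the 34 without a match took up to 0.0244% of the counts in any library. Promoter letters came from RefSeq of the same build, and transcript length and GC from GENCODE transcripts, known for 91.8% of tested genes.

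The test was run in R 4.3.3 with edgeR 4.0.16 (TMM, filterByExpr, robust quasi-likelihood fit), with all 11 libraries in 1 fit of 4 group means (7 residual degrees of freedom), since WT D0 holds 2 libraries. CPM are TMM-scaled, given per library or as mean ± SD, and log2 fold changes are KO minus WT, or D2 minus D0. SE is the log2 fold change over the root of F. The 95% intervals use the t distribution on 7 degrees of freedom and can be wider than the test's p implies. For Gapdh at D0 the interval was -0.000821 to 0.64, with an unadjusted edgeR p of 0.035. The script was tested on simulated counts. Alternatives were the Wald test of DESeq2 1.42.0, edgeR with DESeq2's scaling, no filter on low counts, a mean of at least 5 CPM, only the compared groups, a block for replicate number within day or across days, and each library left out. The GC offset (lowess span 0.3), alone and with the block, was added after the data were seen.

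Same-numbered KO and WT libraries deviated together from their group means at D2, with correlations of 0.217, 0.198 and 0.114 across genes. Unlike numbers gave -0.193 to 0.00511 at D2, and the numbers were taken to pair the libraries there. Deviations within a group cancel out, so these correlations are not independent. Whether equal numbers mean a shared host was not tested. At D0 the 2 shared numbers gave 0.0275 and 0.41, and KO replicate 1 with WT replicate 2, of unlike number, gave 0.376. The deviations of the 2 WT D0 libraries from their mean mirror each other, so these values cannot decide the pairing at D0. The block within day used the numbers at both days, and the main fit used no block. That block leaves fewer residual degrees of freedom than the main fit. KO D0 replicate 1 has no WT partner in it, so its D0 comparison rests on the 2 shared numbers. The genes and lists were chosen with earlier results of these data known. Named were the 5 genes throughout, up to 3 called genes per list, comparison and direction by smallest p, and the 5 genes most correlated with each. A gene the rule would name is not reported here. Each sample is 1 mouse per the labels, and p-values cover the spread between these libraries.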

Additional observations from a re-analysis of the deposited data

Results flagged for a closer look

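Among the 5 lactate genes and the 7 lists alone, there were 8 tested genes whose change from D0 to D2 differed between the genotypes in the interaction term of edgeR's fit, and each was lower in KO, where 5.72% of all tested genes were called lower and 0.124% higher. The difference on the log2 scale was -2.11 for Ldha (SE 0.17, adjusted p = 0.00022), -1.32 for Pdk3 (adjusted p = 0.0093), -1.45 for Dlat (adjusted p = 0.0093) and -1.17 for Vhl (adjusted p = 0.0093). It was -0.913 for the oxoglutarate carrier gene Slc25a11 (adjusted p = 0.011), -1.0 for Bsg (adjusted p = 0.023), -1.24 for Slc16a1 (adjusted p = 0.025) and -0.713 for Pgam1 (adjusted p = 0.027). Ldha kept its call in each of the 11 fits that left out a library, with values from -2.23 to -1.99. Without WT D0 replicate 2 the others lost theirs. The values there were -1.37 for Pdk3, -1.34 for Dlat, -1.05 for Vhl, -0.90 for Slc25a11, -0.86 for Bsg, -1.35 for Slc16a1 and -0.80 for Pgam1. That fit holds 1 WT D0 library, whose spread is taken from the other groups. Calls over all genes moved as well. With a library of another group left out, 113 to 1404 of all tested genes were called lower, against 784 in the main fit. Pgam1 also lost its call without any of KO D0 replicate 2, KO D2 replicates 1, 2 and 3, WT D0 replicate 3, and WT D2 replicates 2 and 3 (adjusted p 0.054 to 0.095). With the GC offset Ldha (-2.23), Bsg (-0.95) and Dlat (-1.13) kept theirs, and Pdk3 (-0.71, adjusted p = 0.064), Vhl (-0.74, 0.073), Slc25a11 (-0.70, 0.052), Pgam1 (-0.58, 0.11) and Slc16a1 (-0.59, 0.23) did not. With the replicate block the list genes Hk2 (-0.87, edgeR adjusted p = 0.027), Pdk2 (-1.28, 0.015), Mpc2 (-0.61, 0.029), Egln3 (-1.65, 0.022) and Hif1a (-1.45, 0.00069) were called lower too, and Dld (0.62, 0.013) and Nptn (0.56, 0.012) were called higher. Of the 56 tested list genes 10 were then lower and 2 higher, against 1997 and 619 of all 13711 tested genes.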

How the results depend on the processing

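With the GC offset the residual Ldha signal in KO changed from D0 to D2 by -0.068 in place of 0.14, and with it Slc16a1's difference between genotypes fell to -0.59 (adjusted p = 0.23), or -0.58 (0.064) with the block added. Slc16a3's change in WT was below 0 with no filter (-0.041), at least 5 CPM (-0.10), only the compared groups (-0.044) and the block across days (-0.16). Its change in KO was 0.69 (adjusted p = 0.047) with only the compared groups and 0.95 (0.022) with the GC offset, so 2 of the 4 genes rose in KO there, and at D2 KO against WT was 0.71 (0.0096) with the GC offset and the block, 1 gene then being higher. Bsg's fall in KO was -0.30 with DESeq2's scaling in edgeR (adjusted p = 0.09) and -0.31 by DESeq2 (0.11), so 0 genes fell there. DESeq2's scaling moved the median of all genes at D2 from 0.01 to 0.10 and in KO over time from -0.20 to -0.09, with 440 genes higher and 1762 lower at D2 in place of 221 and 1986.

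With each library left out, the ranges were -0.20 to 0.93 (log2 ratio of Ldhb to Ldha per kb with 0.5 counts added, KO over time), -0.30 to 0.18 (carrier ratio at D0), -1.35 to -1.07 (Slc16a1, difference), -0.47 to 0.21 (Slc16a3, WT over time), -0.081 to 0.20 (Bsg at D0), 0.40 to 0.68 (Bsg, WT), -0.57 to -0.36 (Bsg, KO) and -1.14 to -0.86 (Bsg, difference). Counts of called genes then ran from 0 to 1 (falling in KO) and from 1 to 3 (lower in the difference). The replicate block within day gave Slc16a1 -1.30 (adjusted p = 0.00062) and Bsg -1.08 (0.00029) for the difference and changed no call of the 4 tested genes. These smaller p-values rest on a pairing by number that is undecided at D0, and on fewer residual degrees of freedom than the main fit. Without added counts the Ldhb ratio cannot be formed in WT D2 replicate 2, which has 0 counts, so that setting was not run there. Depth limits Ldhb in particular, at 0 to 8 counts per library.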
